A study of Mus musculus with 6 samples.

Results

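The genes examined were involucrin (Ivl), Sprrl9, Sprr1a, Sprr1b, Sprr2a, Sprr3, loricrin (Lor) and transglutaminase 1 (Tgm1). These genes were studied in stellate cells of the liver, which store vitamin A when quiescent and turn into matrix-producing myofibroblasts after injury. They were chosen by gene symbol as a group of cornified envelope genes, with their difference between the genotypes already known for some of them, so that difference is described below without a test. Of the 8 genes, 7 had a probe, 1 probe each, out of 16390 genes measured in all; Sprr2a was not analysed here. Sprrl9 is an older name of Lce1h, a late cornified envelope gene, and is called Sprrl9 below. The cells came from mice with cirrhosis induced by CCl4 (carbon tetrachloride), 3 samples from wild type mice and 3 from SEPT4-KO mice, which lack the septin gene Sept4. Every sample carried the same liver injury, and there was no uninjured group. The labels give no strain, age or sex, and do not say whether the deletion was made in all cells or whether the 3 samples of a genotype are separate animals, so the spread between samples may be technical.

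The cornified envelope is a shell of crosslinked protein that replaces the plasma membrane of keratinocytes as they die to form the outer layer of the skin. Transglutaminases join glutamine and lysine residues of precursor proteins: involucrin is laid down early as the scaffold, loricrin and the small proline-rich (SPRR) proteins reinforce it, and late cornified envelope (LCE) proteins are added last. Most of the precursor genes lie side by side in the epidermal differentiation complex, on chromosome 3 of the mouse. None of these proteins is a usual marker of stellate cells, although SPRR genes are also known to be induced by stress outside the skin.

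The start regions of 4 of the genes are shown because they span the range of differences found: Ivl and Sprrl9 were far lower in the knockout, Sprr1a nearly equal and Lor slightly higher. Each window runs from 250 bases before to 50 bases after the annotated start in RefSeq (GRCm38.p6), 5′ to 3′ along the gene, and all 4 lie on the minus strand. Capitals mark TGANTCA, the site that AP-1 factors (dimers of Jun and Fos proteins) bind, and TATAAA, the TATA box. Positions are counted back from the start site. Ivl is at chr3:92573686-92573985, Sprrl9 at chr3:92765016-92765315, Sprr1a at chr3:92485832-92486131 and Lor at chr3:92083093-92083392.
Ivl: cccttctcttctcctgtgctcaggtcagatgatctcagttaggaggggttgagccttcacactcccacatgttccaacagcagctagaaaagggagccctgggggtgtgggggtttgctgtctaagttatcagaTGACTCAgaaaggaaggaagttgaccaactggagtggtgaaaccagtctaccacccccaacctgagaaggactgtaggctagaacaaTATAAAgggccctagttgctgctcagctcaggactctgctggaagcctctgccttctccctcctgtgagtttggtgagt
Sprrl9: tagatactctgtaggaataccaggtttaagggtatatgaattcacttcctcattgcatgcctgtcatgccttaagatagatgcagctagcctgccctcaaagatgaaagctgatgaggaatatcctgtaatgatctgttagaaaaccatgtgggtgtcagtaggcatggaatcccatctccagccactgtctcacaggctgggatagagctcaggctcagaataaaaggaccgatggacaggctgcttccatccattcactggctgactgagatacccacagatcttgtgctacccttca
Sprr1a: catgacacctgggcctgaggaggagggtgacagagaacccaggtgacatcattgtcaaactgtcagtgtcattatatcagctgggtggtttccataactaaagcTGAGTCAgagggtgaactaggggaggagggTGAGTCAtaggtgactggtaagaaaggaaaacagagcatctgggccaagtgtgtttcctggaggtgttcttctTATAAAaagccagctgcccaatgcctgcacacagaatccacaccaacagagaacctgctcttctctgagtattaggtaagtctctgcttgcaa
Lor: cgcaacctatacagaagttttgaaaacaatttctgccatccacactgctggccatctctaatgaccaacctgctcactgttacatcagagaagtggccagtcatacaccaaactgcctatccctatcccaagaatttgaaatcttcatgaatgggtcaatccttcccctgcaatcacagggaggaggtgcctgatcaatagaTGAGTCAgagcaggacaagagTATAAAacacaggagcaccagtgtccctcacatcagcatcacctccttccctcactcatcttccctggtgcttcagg
The Ivl window holds TGACTCA at position -116 and a TATA box at -29. Sprr1a holds TGAGTCA at -146 and again at -116, with a TATA box at -43. Lor holds TGAGTCA at -48 and a TATA box at -27. Neither motif is in the Sprrl9 window.

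The members did not move as one group. Ivl and Sprrl9 were much lower in every knockout array, Tgm1 was lower to a smaller extent, Lor was slightly higher, and Sprr1a read nearly the same in each genotype. Sprr1b and Sprr3 lay so near the lowest values of the arrays that little can be read from them. Values are normalised signals on the log2 scale, where 1 unit is a doubling, and differences are knockout minus wild type. The groups did not overlap for 4 of the 7 genes, 3 lower and 1 higher in the knockout. Groups also did not overlap for 56.2% of all probes, 21.7% lower and 34.5% higher, and 42.7% of all probes passed an adjusted p of 0.05 in limma, 16.0% lower and 26.7% higher. These counts are given only for scale, because the genotype difference was known when the genes were chosen. In these bulk samples, fewer cells of a type and less RNA per cell cannot be told apart.

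**Figure D1:**
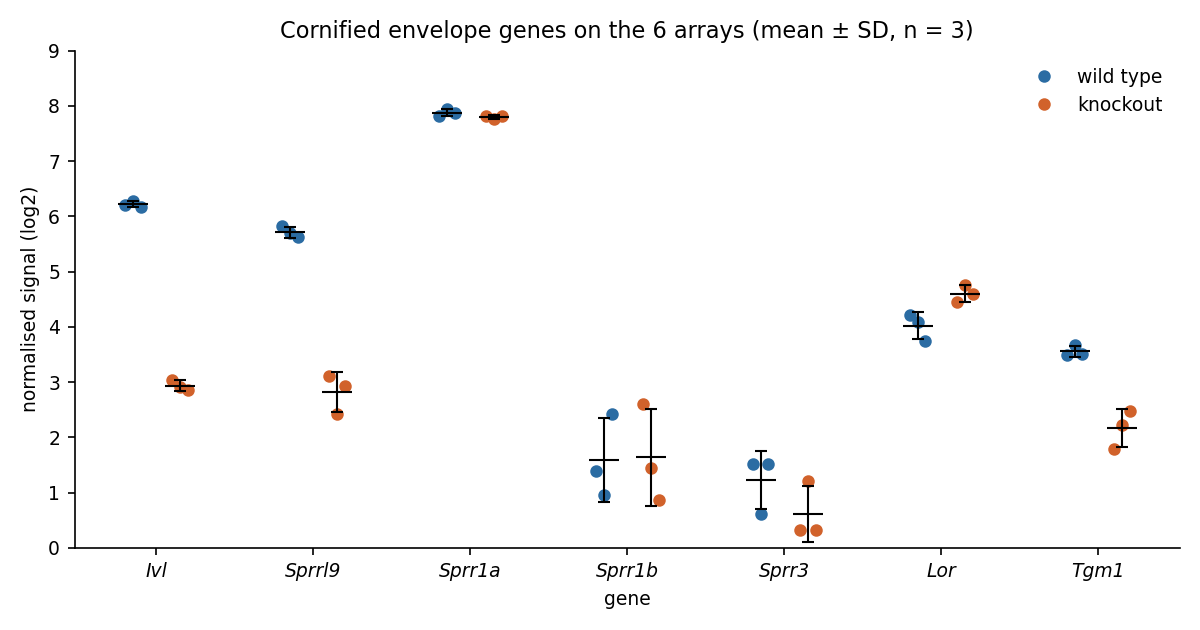
Normalised log2 signal (vertical axis) of the 7 measured genes (horizontal axis), with a point for each array, wild type in blue and knockout in orange, and bars for the mean and SD of 3 arrays. Ivl and Sprrl9 have wild-type means of 6.22 and 5.72 and knockout means of 2.93 and 2.82, whereas Sprr1a stands at 7.88 and 7.80.

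Among the scaffold and late envelope proteins, involucrin showed the widest gap. Ivl read 6.21, 6.28 and 6.18 on the wild-type arrays and 3.04, 2.91 and 2.85 on the knockout arrays. All knockout values lay more than 3 log2 units below all wild-type values. The means were 6.22 ± 0.05 and 2.93 ± 0.10 (SD, n = 3), a difference of -3.29, or 9.78-fold. Over all 23473 probes only 2 differences were more negative, a rank given only for scale because the genes were chosen with the difference known. No Ivl value was at the lowest value of its array, but the knockout values were close to the lower quartile of the arrays, which ranged from 2.83 to 2.89. With a constant added on the linear scale, which shrinks differences of dim probes, the Ivl difference was -2.95.

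Sprrl9 had almost the same pattern. It read 5.82, 5.70 and 5.62 in wild type and 3.11, 2.42 and 2.93 in the knockout. The knockout arrays varied more than the wild-type arrays, and still none came within 2 log2 units of them. The means were 5.72 ± 0.10 and 2.82 ± 0.36 (SD, n = 3), a difference of -2.89, or 7.43-fold, and -2.54 with the linear constant. Lor, the main reinforcing protein of the mature envelope, ran the other way. It read 4.22, 4.10 and 3.75 in wild type and 4.45, 4.76 and 4.60 in the knockout, so the groups were close but did not overlap. The means were 4.02 ± 0.24 and 4.60 ± 0.15 (SD, n = 3), a difference of 0.58.

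Of the SPRR genes in the group, only Sprr1a was bright enough to compare, and it showed no such gap. Sprr1a read 7.82, 7.94 and 7.88 in wild type and 7.81, 7.76 and 7.82 in the knockout. The highest knockout value overlapped the lowest wild-type value, and all 6 arrays lay well above the floor. The means were 7.88 ± 0.06 and 7.80 ± 0.03 (SD, n = 3), a difference of -0.08. After quantile normalisation that difference was -0.18 and after cyclic loess -0.19, still small beside that of Ivl. Sprr1b ranged from 0.97 to 2.43 in wild type and from 0.87 to 2.60 in the knockout, and its difference of 0.04 turned to -0.16 after quantile normalisation and -0.15 after cyclic loess. Sprr3 ranged from 0.62 to 1.52 in wild type and from 0.32 to 1.20 in the knockout, where 2 of the 3 arrays were at their lowest value, so its knockout level is only a bound. Neither gene gives a usable genotype difference at this signal.

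Tgm1, the membrane-bound enzyme that crosslinks the envelope precursors, was lower in the knockout. It read 3.49, 3.67 and 3.51 in wild type and 1.80, 2.23 and 2.48 in the knockout. Every knockout array lay below every wild-type array, with a wider spread. The means were 3.56 ± 0.10 and 2.17 ± 0.34 (SD, n = 3), a difference of -1.39, or 2.62-fold, and -1.04 with the linear constant. Tgm1 was thus dim in wild type and dimmer in the knockout, where the size of the difference is imprecise.

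**Figure D2:**
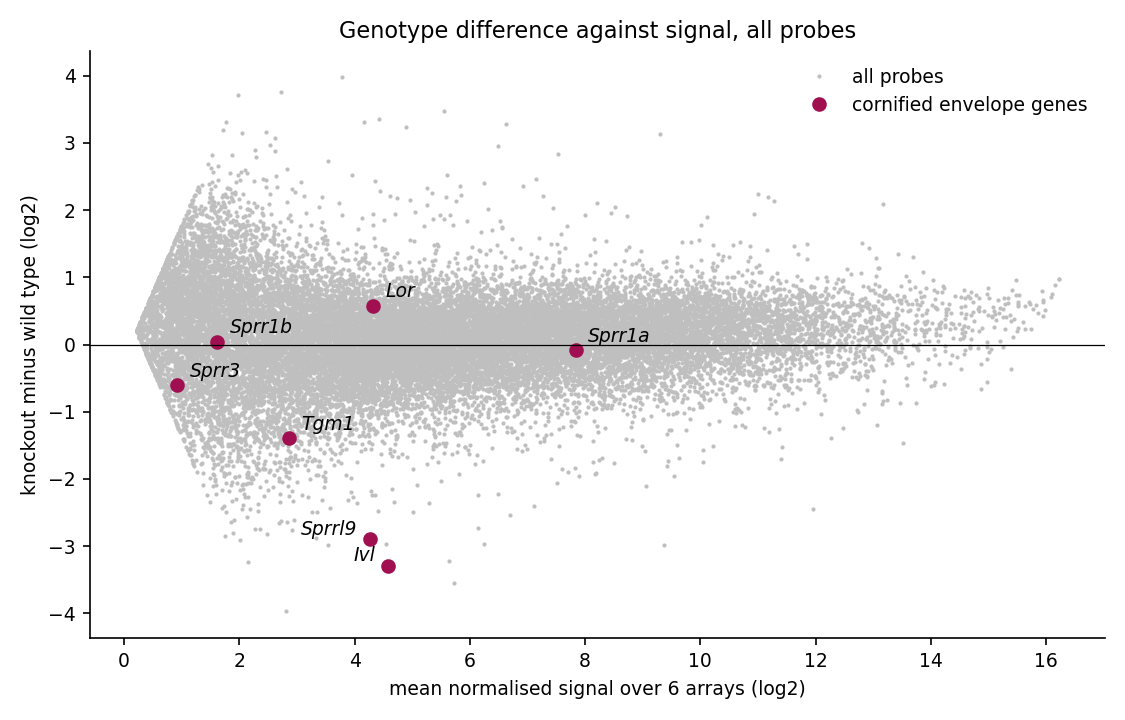
Difference between the genotypes (knockout minus wild type, log2, vertical axis) against the mean log2 signal over the 6 arrays (horizontal axis) for all 23473 probes in grey, with the 7 cornified envelope genes in purple. Ivl at -3.29 and Sprrl9 at -2.89 lie at the lower edge of the cloud, and the other 5 genes lie within it.

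The remaining measurements concern genes that are not members of the group, tested in limma over all probes. Their lists were drawn up with earlier results of these data known, so their counts and p-values are not independent support. Of 107 other genes of cornification measured, 21 rose and 20 fell in the knockout, or 19.6% and 18.7%, against 26.7% and 16.0% of all probes. After quantile normalisation 17 rose and 24 fell, and after cyclic loess 16 and 25, so the balance of directions depends on scaling. Their median difference was 0.06, beside 0.12 over all probes, which became 0.02 and 0.01 under these scalings. Dim probes passed less often: 19.1% of probes with a mean signal of 2 to 4 passed, and 70.3% of those at 8 or above. Of the 107 genes, 53 had a mean signal under 4, so smaller differences could have been missed in them.

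Among 39 other envelope proteins, 9 fell and 8 rose, 23.1% and 20.5%, with a median difference of 0.14. After quantile normalisation 11 fell and 6 rose, and after cyclic loess 11 and 5. Sprr2h, of the SPRR2 cluster, fell from 9.41 ± 0.09 to 8.18 ± 0.05 (SD, n = 3), a difference of -1.23 ± 0.07 (SE), for which limma gave an adjusted p of 0.000513. Its groups were separated by more than 1 log2 unit. Sprr2e fell by 1.11, the trichohyalin-like gene Tchhl1 by 1.07 and Lce1g from a mean of 3.55 to 2.55, whereas the cystatin A relative Stfa1 rose by 1.04. These 4 were dim, with adjusted p-values of 0.0240 to 0.0373, and none passed with every array left out in turn. Sprr2e missed the threshold without wild-type replicate 1, 2 or 3 or knockout replicate 2 (adjusted p up to 0.0940 in limma), and Tchhl1 without wild-type replicate 1, 2 or 3 or knockout replicate 1 (up to 0.0817). Lce1g missed it without wild-type replicate 1, 2 or 3 or knockout replicate 3 (up to 0.0762), and Stfa1 without wild-type replicate 1 or 3 or knockout replicate 1 or 3 (up to 0.105). With a block for the replicate number, Tchhl1, Lce1g and Stfa1 also missed it in limma (adjusted p of 0.077, 0.0624 and 0.103). Stfa1 missed it with array weights as well (0.0646).

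Within families, some relatives passed and others did not, and the differences between relatives were not tested. Of 8 SPRR2 genes measured, 3 fell and none rose in limma, where 16.0% of all probes fell and 26.7% rose. No SPRR2 gene rose at an unadjusted p under 0.05. Those that fell were Sprr2h, Sprr2e and Sprr2k, the last by 0.97 (adjusted p of 0.0106). The rest did not pass and differed in direction. Sprr2b, Sprr2f and Sprr2j (now Sprr2j-ps, a pseudogene) had differences of 0.25, 0.35 and 0.67, and Sprr2d and Sprr2i of -0.05 and -0.47. All but Sprr2h and Sprr2e are named here after their values were seen. SPRR2 genes are near-identical copies, and the probe sequences were not used here, so signal may be shared between them. Of 9 LCE genes besides Sprrl9, 1 fell, which was Lce1g, and 2 rose, which were Lce3c by 0.44 and Lce1f by 0.25, both named after their values were seen. The rise of Lce1f was lost after cyclic loess, with a difference of 0.12 and an adjusted p of 0.0773, and without knockout replicate 2, at an adjusted p of 0.0541. A replicate block also removed that call (0.0559 in limma). Of the proteins that line the membrane under the envelope, envoplakin (Evpl) fell by 0.72. That call was lost without wild-type replicate 2 or 3 (adjusted p of 0.0779 and 0.0770 in limma) and with a replicate block (0.0755). Periplakin (Ppl), named after its values were seen, did not pass, with a difference of 0.14 and an adjusted p of 0.613. Annexin A1 (Anxa1), abundant in many cell types, rose by 0.72 (adjusted p of 0.00132 in limma), and by 0.44 after quantile normalisation and 0.42 after cyclic loess.

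Crosslinking enzymes, kallikreins and serpins included the 2 largest falls of the cornification lists. Of 20 measured, 3 fell and 1 rose, 15% and 5%, against 16.0% and 26.7% of all probes. The kallikrein Klk8, a serine protease of the upper epidermis, fell from 8.53 ± 0.04 to 6.68 ± 0.16 (SD, n = 3), a difference of -1.86 ± 0.09 (SE), adjusted p of 0.000469 in limma. Serpinb2, the serpin that inhibits urokinase and is itself found in the cornified envelope, fell from 10.47 ± 0.02 to 8.78 ± 0.12 (SD, n = 3), a difference of -1.69 ± 0.07 (SE), adjusted p of 0.000375. For each of these genes all knockout arrays lay below all wild-type arrays. Klk7, a protease that sheds dead keratinocytes, fell by 0.63, and the membrane protease St14 (matriptase) rose by 0.42. The St14 call was lost without wild-type replicate 1 or 2 or knockout replicate 2 (adjusted p up to 0.0615 in limma). It was also lost with a replicate block (0.0827), and the Klk7 call with a trended prior (0.0555). The list's median was 0.03, and -0.14 after quantile normalisation and -0.13 after cyclic loess, where 5 fell and 2 rose. Of the other transglutaminases, named after their values were seen, tissue transglutaminase (Tgm2) had a difference of -0.11 with an adjusted p of 0.206 in limma. After quantile normalisation Tgm2 fell by 0.29 and after cyclic loess by 0.32, with adjusted p-values of 0.00507 and 0.00385. The epidermal enzyme Tgm3 read 0.00, 0.12 and 1.60 in wild type, where 2 of the 3 arrays were at their lowest value, and 3.27, 1.93 and 1.92 in the knockout. Its wild-type level is thus only a bound and its difference has no exact size; limma gave an adjusted p of 0.0662, and 0.0104 with a trended prior, 0.0451 with array weights and 0.0324 without wild-type replicate 3.

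Genes of the lipid barrier, which coats the envelope, moved in both directions. Of 13 measured, 4 fell and 2 rose, with a median of -0.37. These were 30.8% and 15.4%, against 16.0% and 26.7% of all probes. The glucosylceramide synthase gene Ugcg fell by 0.68, the very-long-chain fatty acid elongase gene Elovl4 by 0.65 and the tight junction gene Cldn4 by 0.60. Abhd5, the activator of triglyceride lipase, rose by 0.79 and the epidermal lipoxygenase gene Alox12b by 0.40. The adjusted p-values of these 5 genes in limma ran from 0.000763 to 0.00460. The counts were the same after quantile normalisation and cyclic loess.

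**Figure D3:**
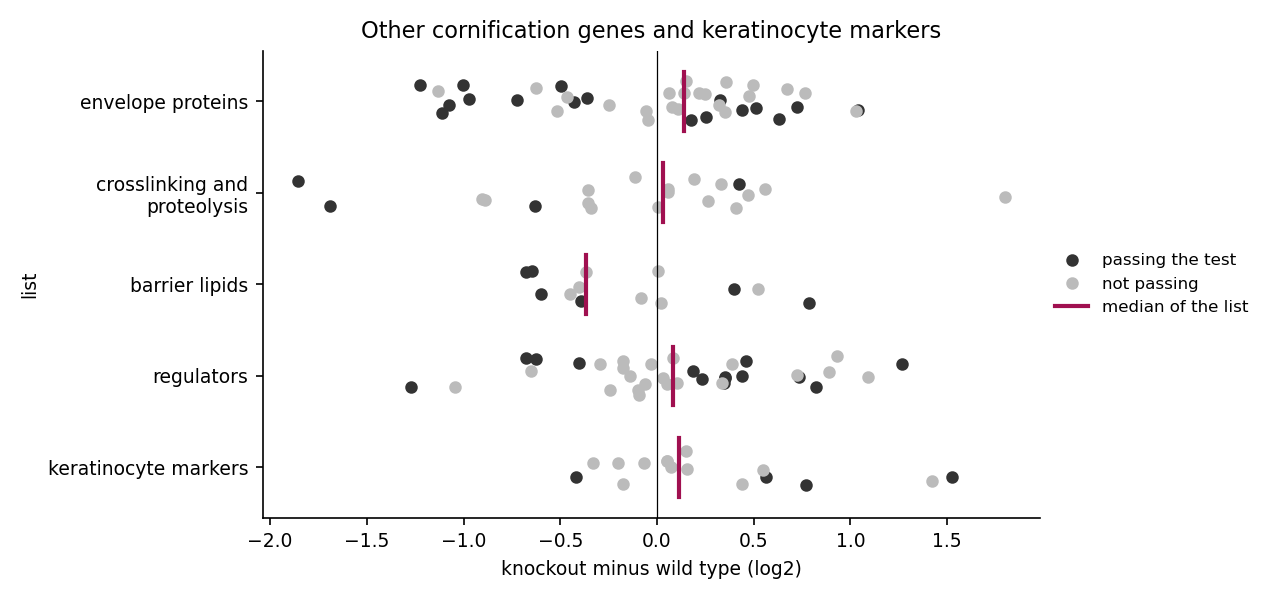
Difference between the genotypes (knockout minus wild type, log2, horizontal axis) for the genes of 5 lists (vertical axis; points are spread vertically only to separate them), dark where the adjusted p in limma is under 0.05, with the list median as a purple line. The medians run from -0.37 to 0.14, and Klk8 at -1.86 and Serpinb2 at -1.69 are the 2 lowest dark points.

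Regulators of keratinocyte differentiation, most of them transcription factors, gave 10 rises and 4 falls among 35 measured, 28.6% and 11.4%, near the shares of all probes. Fosl1, a Fos-family partner in AP-1, fell from 10.09 ± 0.05 to 8.82 ± 0.04 (SD, n = 3), a difference of -1.27 ± 0.05 (SE), adjusted p of 0.000339 in limma. Its relative Fosb rose from 4.76 ± 0.14 to 6.03 ± 0.15 (SD, n = 3), a difference of 1.27 ± 0.11 (SE), adjusted p of 0.00116. Of the 6 AP-1 genes measured, Jun was the only other one to pass, falling by 0.40 (adjusted p of 0.00946; named after its values were seen). AP-1 genes thus moved in opposite directions. The oxidative stress factor Nfe2l2 fell by 0.68, the aryl hydrocarbon receptor partner Arnt rose by 0.73, and Grhl3, a factor required for the skin barrier, rose by 0.82 from a dim 1.81. The Grhl3 call was lost after quantile normalisation (adjusted p of 0.0524) and cyclic loess (0.0664), and without wild-type replicate 2 or 3 or any one knockout array (up to 0.112). With a trended prior (0.178 in limma) or a replicate block (0.0772) that call was lost too. The Arnt call was lost without wild-type replicate 2 or 3 or knockout replicate 1 or 2 (up to 0.0701 in limma). The median of the list was 0.08, and -0.01 and -0.04 after these scalings, with 7 rises against 4 and 5 falls. The keratinocyte factor Trp63 stood at 2.17 in wild type and 2.22 in the knockout, with an adjusted p of 0.965.

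The AP-1 motif was searched in the windows of all members. TGANTCA, which reads the same on either strand, was found in the windows of 4 of the 7 measured members: Ivl, Sprr1a, Sprr1b and Lor. It was not found in those of Sprrl9, Tgm1 and Sprr3. Of all 32851 promoter windows in the RefSeq table, 7.81% held it. Among 31 other envelope genes with a window, 15 held it, including all 7 SPRR2 genes with a window. It was in 6 of the 7 such genes that fell and in 9 of the 24 that did not fall, counts in which the related SPRR2 copies are not independent. The TATAAA motif was in 5 members and in 13.6% of all windows. CACCC, a core of sites for Krüppel-like factors, was in 6 members and in 57.5% of all windows. Both were searched on both strands and anywhere in the window, so a TATAAA match need not be a TATA box. A match describes the letters of the window and no more.

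Position along the chromosome gave another view of the genes. By the gene table, 101 genes lie from S100a1 to S100a10, the stretch that holds the epidermal differentiation complex, and 45 were measured, 6 of them members. Ivl and Sprrl9 lie there with 14 genes between them, of which 5 were measured. Of these, Lce1g fell, Lce1f rose, and Lce1a1, Lce1b and Lce1c did not pass. Of the 39 genes in the stretch that are not members, 10 fell and 6 rose, with a median difference of -0.05. These were 25.6% and 15.4%, against 16.0% and 26.7% of all probes. Without wild-type replicate 1, 5 fell and 5 rose, and the same numbers were found without wild-type replicate 3. Falls were then 12.8% of the stretch, beside 2969 and 3045 of all 23473 probes in the same fits, the former being 12.6%. Without wild-type replicate 2, 6 fell and 7 rose, and without a knockout array 8 to 10 fell and 5 or 6 rose. After quantile normalisation 12 fell and 4 rose, and after cyclic loess 12 and 3. The 12 falls were 30.8% of the stretch, beside 20.2% and 20.7% of all probes in these 2 fits.

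The widest drop in the stretch outside the members was that of Crct1, a cysteine-rich gene of the LCE cluster. Crct1 fell from 6.75 ± 0.03 to 5.18 ± 0.04 (SD, n = 3), a difference of -1.57 ± 0.05 (SE), adjusted p of 0.000248 in limma. At the other end, S100a4, a calcium-binding protein of fibroblasts and other motile cells, fell from 10.89 ± 0.03 to 9.76 ± 0.05 (SD, n = 3), a difference of -1.14 ± 0.05 (SE), adjusted p of 0.000368. Its neighbour S100a6, named after its values were seen, fell by 0.72. Falls and rises were mixed along the stretch: of 11 S100 genes measured there, 3 fell and 4 rose.

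**Figure D4:**
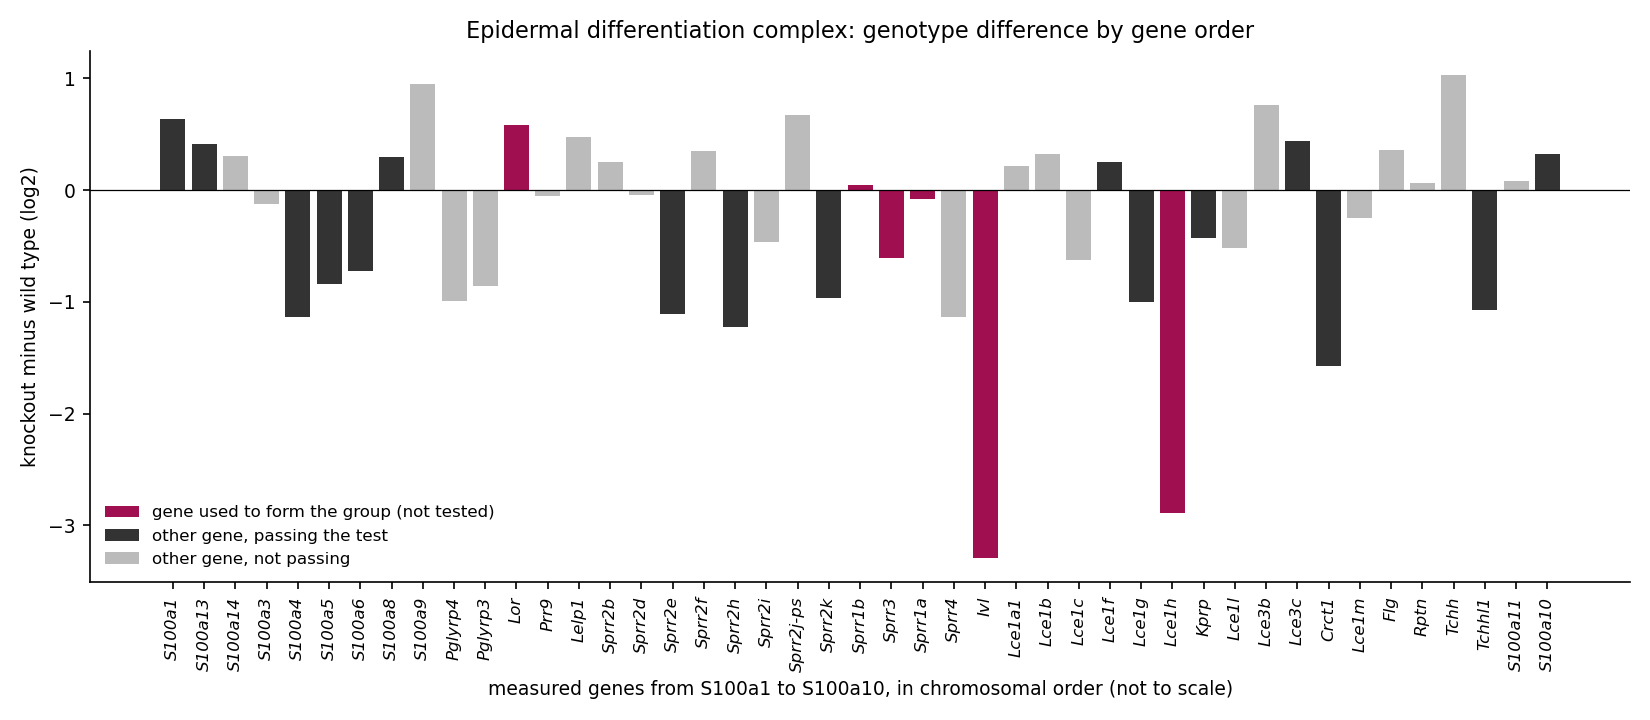
Difference between the genotypes (knockout minus wild type, log2, vertical axis) for the 45 measured genes from S100a1 to S100a10, in the order of the gene table and not to scale. Purple bars are members of the group, dark bars other genes with an adjusted p in limma under 0.05 and grey bars the rest; Ivl and Lce1h (Sprrl9) reach -3.29 and -2.89, and the next lowest bar is Crct1 at -1.57.

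Markers of epithelial cells in which these genes are normally found were mostly dim. Of 26 keratinocyte markers 16 were measured, and 9 of these had a mean signal under 3, among them Trp63, Krt15, Krt13 and Dsg3. Their summed linear signal ran from 267 to 280 in wild type and from 293 to 310 in the knockout, and without Perp, the brightest of them, from 207 to 216 and from 212 to 225. Krt14 fell by 0.42 (adjusted p of 0.00759 in limma), whereas Perp, Col17a1 and Pkp3 rose by 0.56, 0.77 and 1.53. Pkp3 was near the floor and missed the threshold without wild-type replicate 2 or 3, without any one knockout array (adjusted p up to 0.111), and after quantile normalisation (0.0604) or cyclic loess (0.0627). Under a replicate block Pkp3 missed the threshold too (0.11 in limma). These 4 genes are named after their values were seen.

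Markers of other liver cells moved in differing directions. The 6 mesothelial markers summed to between 69.5 and 78.9 in wild type and between 47.1 and 53.8 in the knockout. Of these, Upk1b fell by 1.23 and Gpm6a by 1.52, the latter call lost without wild-type replicate 1, 2 or 3 or knockout replicate 1 (adjusted p up to 0.117 in limma). The Gpm6a call was also lost with array weights (0.0593) and with a replicate block (0.0944). Msln, Wt1, Lrrn4 and Upk3b did not pass, with differences of -0.07, -0.25, -0.60 and -0.86, and the last 2 were at the lowest value of some arrays. The 6 bile duct markers measured summed to between 1102 and 1203 in wild type and between 522 and 543 in the knockout, nearly all of it osteopontin (Spp1), which myofibroblasts also make and which fell by 1.26. Without Spp1 the sum ran from 44.4 to 55.6 in wild type and from 66.6 to 71.1 in the knockout, and the list's median difference was 0.29. E-cadherin (Cdh1) rose by 0.63, a call lost without wild-type replicate 2 (adjusted p of 0.0554 in limma), the other 4 did not pass, and the duct marker Epcam read 1.43 in each genotype. The 7 hepatocyte markers summed to between 1095 and 1151 in wild type and between 1127 and 1186 in the knockout. Without Fgb, the brightest of them, the sum ran from 449 to 457 in wild type and from 473 to 492 in the knockout. Hepatocyte markers passed in both directions. Albumin (Alb1) rose by 0.88 and transthyretin (Ttr) fell by 0.42, with adjusted p-values of 0.000577 and 0.00516 in limma. The urea cycle enzyme gene Cps1 rose by 0.35, a call lost with a trended prior (adjusted p of 0.202), with a replicate block (0.0946), and without wild-type replicate 2 or 3 or knockout replicate 1 or 3 (up to 0.0657). The 5 macrophage markers summed to between 2451 and 2555 in wild type and between 3284 and 3479 in the knockout, and without Cd5l, the brightest, from 421 to 468 and from 496 to 508. Cd5l rose by 0.49, and by 0.31 after quantile normalisation and 0.28 after cyclic loess. The Kupffer cell lectin gene Clec4f rose by 0.52, whereas Emr1, a macrophage surface receptor gene, fell by 1.27 (adjusted p of 0.00823 in limma). None of 6 endothelial markers passed in limma, or at an unadjusted p under 0.05. Of the 6, 4 had a mean signal under 4, so smaller differences could have been missed in them. The part of these cell types in the differences of Ivl, Sprrl9 and Tgm1 was not tested.

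The markers of the stellate cells themselves also differed. All 8 were measured, and 5 rose and 2 fell, or 87.5%, with a median difference of 0.37. Their median signal was 8.22. Of all probes 42.7% passed, and of those with a mean signal of 8 or above 70.3%, so bright probes often passed. After quantile normalisation and cyclic loess 4 rose and 2 fell. The largest difference was that of Lrat, which turns retinol into its stored ester form and rose from 5.05 ± 0.30 to 7.46 ± 0.04 (SD, n = 3), a difference of 2.41 and an adjusted p of 0.000650 in limma. The transcription factor Hand2 rose by 0.83 and decorin (Dcn) by 0.91. Col1a1, a collagen of scar matrix, rose by 0.45, and by 0.28 and 0.26 after these scalings, and Pdgfrb by 0.30, a call lost under them (adjusted p of 0.0585 and 0.0514) and with a replicate block (0.0692). The myofibroblast actin gene Acta2 fell by 0.56, and by 0.93 and 0.88 after these scalings, and desmin (Des) by 0.41. The part of these changes in the differences of the cornified envelope genes was not tested. The markers of liver cells in this and the preceding paragraph are named after their values were seen.

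The genes whose profile came nearest to that of Ivl were Ptgs2, which encodes cyclooxygenase 2, the tolloid-like protease gene Tll1 and the skeletal muscle actin gene Acta1. Likeness was the mean absolute distance between log2 profiles over the 6 arrays, each centred on its own mean, and it was 0.16, 0.16 and 0.19. The differences of the 3 genes were -2.98, -2.97 and -2.97. Nearest to Sprrl9 were Tll1, Ptgs2 and 1 probe of Chd8, a chromatin remodeller, at 0.13, 0.15 and 0.18. The Chd8 probe was at the lowest value of the array in knockout replicate 2, so its knockout level is partly a bound. With only 2 groups of arrays, this measure mainly finds genes with a difference of the same size.

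The arrays had equal medians of 5.02, and between 940 and 1255 probes on each lay at its lowest value, where a level is only a bound. The highest values were 15.7 to 15.8 in wild type and 16.6 to 16.8 in the knockout, so the arrays did not share a single distribution although the labels call them quantile normalised. The sources used here do not say whether the genotypes were handled as 1 batch. If each genotype was its own batch, batch and genotype cannot be told apart. No probe used here is named Sept4, so the deleted gene gave no check of the labels.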

How the data were processed

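Total RNA of hepatic stellate cells was labelled with Cy5 and measured on 6 single-colour arrays, 3 per genotype. The authors deposited log2 signals of 23473 probes. Per the labels these were quantile normalised, but the arrays' highest values differ, so the deposited distributions are not identical. The log base was inferred from the range of the values, and scanner software and background correction were not stated. The labels describe labelling with a kit for microRNA and mention tumours, unlike the stated design. Of the probes, 16631 carried 1 symbol in the platform annotation, 6842 none and 0 several; symbols were updated through a RefSeq gene table (GRCm38.p6), used only for names and gene order, in which 16328 of 16390 matched. Promoter windows matched all 7 measured members.

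Differences were estimated by limma (3.58.1, lmFit and eBayes, R 4.3.3) with no further normalisation, two-sided, Benjamini-Hochberg adjusted over all probes, at 0.05. There were 4 residual and 1.11 prior degrees of freedom. The fit was tested on simulated data. Members and lists were chosen with earlier results of these data known. Named genes were the members, up to 5 genes per list (4 lists and the chromosome 3 stretch) with the largest difference among those that passed, and the 3 nearest profiles to Ivl and to Sprrl9; others are marked as named later. Every gene of the lists had 1 probe. The number of arrays limits the precision. Alternatives were quantile normalisation, median centring, cyclic loess, leaving out dim probes or probes at an array's lowest value, a linear offset (2.34, the 10th percentile), a trended robust prior, array weights, a replicate block and leaving out each array. Figures were drawn with matplotlib 3.10.9.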

Additional observations from a re-analysis of the deposited data

How the results depend on the processing

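Over 16 alternatives, the differences of Ivl stayed between -3.34 and -2.95, of Sprrl9 between -3.04 and -2.54, of Tgm1 between -1.54 and -1.04 and of Lor between 0.45 and 0.68, wherever their probes were kept. Sprr1b, near the floor, changed sign in 5 of 14. Of the 21 other genes named by rule, none changed direction and 8 lost their call under some alternative. The labels do not say whether replicate numbers pair the arrays. Over all probes, deviations of same-numbered arrays from their group means correlated at 0.01, -0.00135 and -0.00196. Dim probes weigh most in this measure, so it cannot exclude pairing. The median SD within groups was 0.73 for probes with a mean signal under 2 and 0.05 at 8 or above. Under a replicate block, 12 cornification genes rose and 15 fell, against 21 and 20, 11 genes of the chromosome 3 stretch passed against 16, and 7724 probes against 10025. Leaving out each array gave 7954 to 9082 probes, 15 to 20 genes higher, 15 to 20 lower, and 10 to 16 in the stretch, the lowest without wild-type replicate 1 or 3. Each gene had 1 probe, so averaging probes could change nothing. Without the dimmest 50% of probes, 39 of the 107 genes were left. Signal near the floor limits Sprr1b, Sprr3 and Tgm1.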
